A study of Mus musculus with 18 samples.

Results

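Macrophages of Zeb1∆M mice that had received a second dose of LPS (LPS + LPS) were compared with Zeb1∆M macrophages after a single dose (LPS), across all genes. The comparison covered 6 of the 18 libraries of the study, 3 per group, which the sample titles and labels assign to these groups. The libraries are RNA-seq of peritoneal lavage cells of C57BL/6 mice, sorted on CD11b and F4/80, and each holds the pooled cells of 2 to 3 mice. Zeb1∆M mice carry floxed Zeb1 alleles (labelled Zeb1f/f) and LysM Cre, a recombinase driven by the Lyz2 promoter, which is active in macrophages, monocytes and neutrophils and acts before any treatment. In the LPS group the vehicle PBS was given a day before 1 dose of LPS, and in the LPS + LPS group 2 doses of LPS were given a day apart, so both groups had met LPS a few hours before sampling and differ in the earlier dose. The Zeb1WT macrophages named for comparison carry the same floxed alleles without Cre and had the same treatments. Untreated macrophages were not analysed here, and no group of the study had the earlier LPS dose alone. A lasting effect of the earlier dose and a changed response to the later dose therefore cannot be told apart. The age and sex of the mice are not given in the sources used here.

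LPS, the lipopolysaccharide of Gram-negative bacteria, is bound by LBP, CD14 and the TLR4-MD-2 receptor. From there MYD88 leads to NF-kB and cytokine genes, and TRIF leads to IRF3, interferon beta and interferon-stimulated genes. A macrophage that meets LPS again within days gives a weaker inflammatory response, a state known as tolerance, in which some genes stay silent while others, among them antimicrobial and repair genes, remain inducible. ZEB1 is a zinc finger repressor known mostly from the epithelial to mesenchymal transition.

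Zeb1, the targeted gene, was low in all 6 libraries. It stood at 2.30, 3.01 and 1.38 CPM in LPS and 0.738, 0.926 and 0.758 in LPS + LPS, where CPM is the read count scaled to a common library size with edgeR's TMM factors (trimmed mean of M values). The library counts behind these levels were 27 to 59 in LPS and 16 to 22 in LPS + LPS. The groups did not overlap, and Zeb1 fell by 1.46 on the log2 scale from LPS to LPS + LPS (SE 0.38, edgeR adjusted p = 0.0062). In Zeb1WT macrophages it stood at 6.77 ± 0.407 CPM in LPS (mean ± SD, n = 3), above every Zeb1∆M library, and at 0.912, 2.52 and 1.07 CPM in LPS + LPS, of which replicates 1 and 3 lay near the Zeb1∆M libraries. The fall was not called with total-count scaling (-0.89, adjusted p = 0.12).

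The 6 libraries held 14053706 to 20060026 counts. The LPS + LPS libraries correlated with each other more closely than the LPS libraries did (Pearson r of log2 CPM across genes 0.976 to 0.977 against 0.950 to 0.971), and between the groups r was 0.883 to 0.900. The counts were also spread differently: the 50 most counted genes took 31.4 to 36.2 percent of each LPS library and 24.8 to 26.4 percent of each LPS + LPS library, and the TMM factors were 0.96 to 1.06 and 1.504 to 1.507. Fold changes are therefore relative to the typical gene. With scaling by total counts alone, the median log2 fold change of all genes was 0.59 and not 0.0069. The split of calls was then 4353 higher against 944 lower (32.4 and 7.02 percent of genes tested).

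The genes of both sort markers were expressed in every library, though no unsorted cells were analysed here for comparison. Adgre1, which encodes F4/80, stood at 2225, 2283 and 2275 CPM in LPS and 2625, 3316 and 2643 in LPS + LPS, and Itgam, which encodes CD11b, at 473, 839 and 734 CPM in LPS and 905, 1083 and 741 in LPS + LPS. Neither passed the test (log2 fold changes 0.34 and 0.41, adjusted p = 0.24 and 0.26), and Itgam overlapped between the groups. Both passed it with total-count scaling (0.93, adjusted p = 0.00026 and 0.99, adjusted p = 0.0088). Csf1r, the receptor for the growth factor of macrophages, rose by 0.76 (SE 0.26, adjusted p = 0.033), a call that was lost without replicate 1 or 2 of either group (adjusted p = 0.079 to 0.098). Of 11 core macrophage markers 4 rose and 2 fell, though no more than 2 rose without replicate 1 or 2 of LPS or replicate 1 or 2 of LPS + LPS, and none was at 0. Their sum, mostly counts of Lyz2, was 28018 to 43356 CPM in LPS and 13141 to 16950.5 in LPS + LPS. In bulk samples such as these, fewer cells of a type and less RNA per cell cannot be told apart.

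At an adjusted p under 0.05, 2125 of 13443 genes tested (15.8%) were higher in LPS + LPS and 2272 (16.9%) were lower, and the median log2 fold change over all genes was 0.0069. These percentages are the background for each list of genes below. The CPM of the groups did not overlap in 6947 of the 13443 genes tested and in 97.86 percent of the genes called. A lack of overlap therefore adds little to a call. Of the genes called, 847 rose and 753 fell by 1 to 2 on the log2 scale, 560 and 524 by 2 to 4, and 213 and 137 by more. A test against a minimum change of 1 on the log2 scale (glmTreat) kept 647 higher and 696 lower genes. Among called genes with a mean log2 CPM of at least 3 and no overlap between the groups, leaving out predicted genes, the 3 largest rises were those of Arg1, Chil3 and Lox and the 3 largest falls those of Cd209a, Mx1 and Cxcl10. The plot of list members shows the span, from interferon-stimulated genes at the bottom to cell cycle genes at the top.

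**Figure D1:**
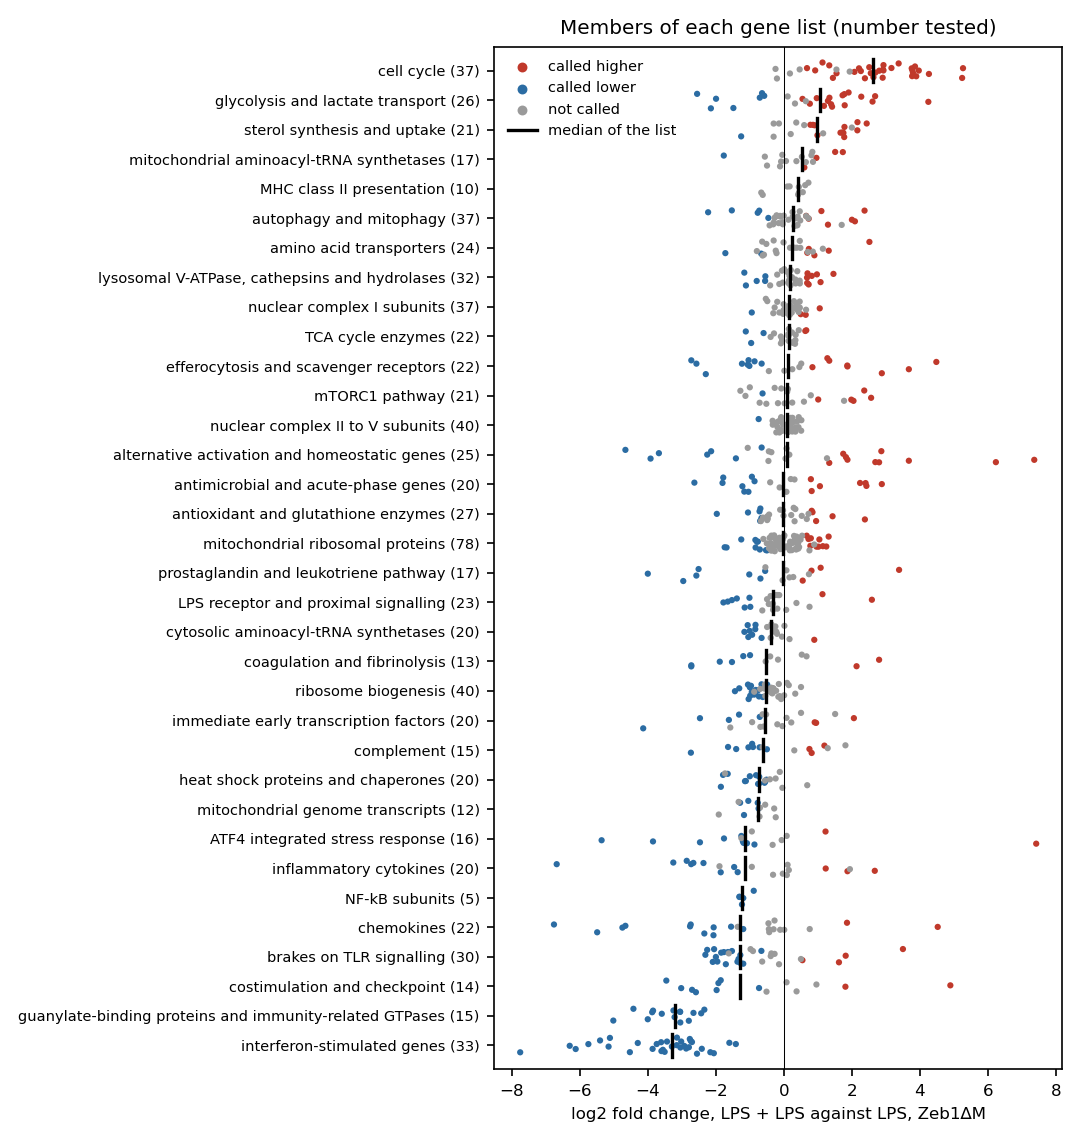
Each point is the log2 fold change (x axis, LPS + LPS against LPS, Zeb1∆M, 3 libraries per group) of 1 tested gene of the list named on the y axis, with the number tested in parentheses, coloured by whether it passed the test, and the bar is the list's median. Medians run from -3.30 for interferon-stimulated genes to 2.63 for the cell cycle, and Vldlr, at the far right of the ATF4 list, had no counts in LPS, so its point is no estimate of size.

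Interferon-stimulated genes fell as a whole group. All 33 tested members were lower in LPS + LPS, with a median log2 fold change of -3.30, and so were all 15 guanylate-binding proteins and immunity-related GTPases, whose median was -3.22. The first group holds antiviral effectors and RNA sensors that type I interferon induces, and the second holds GTPases that attack the vacuoles of intracellular microbes. Mx1 (ENSMUSG00000000386.16, chr16:97447035-97462907, minus strand, GRCm38), a gene of the antiviral GTPase family that is annotated as a polymorphic pseudogene and makes no working protein in C57BL/6 mice, stood at 497, 481 and 595 CPM in LPS and 1.81, 2.32 and 3.17 in LPS + LPS, a 217-fold fall (log2 fold change -7.76, SE 0.38, adjusted p = 9.5e-10). All 3 LPS libraries were high, all 3 LPS + LPS libraries were low, and neither group was widely spread. Tnfsf10, which encodes the death ligand TRAIL and is on no list here, fell by 6.44 (SE 0.44). Mx2, also annotated as a polymorphic pseudogene, and the antiviral genes Isg20 and Oasl1 fell too, with log2 fold changes of -5.75, -4.55 and -4.53.

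Rsad2, which encodes the antiviral enzyme viperin, stood at 1807, 2384 and 2658 CPM in LPS and 22.0, 18.4 and 46.5 in LPS + LPS (log2 fold change -6.30, SE 0.44, adjusted p = 1.3e-08). Cmpk2, its neighbour on chromosome 12 and a mitochondrial nucleotide kinase, stood at 776, 970.0 and 893 CPM in LPS and 16.1, 14.7 and 31.3 in LPS + LPS and fell by 5.41 (SE 0.34, adjusted p = 4.3e-09). Ifit1, Ifit2 and Ifit3, which bind foreign RNA, fell, with log2 fold changes of -5.16, -6.13 and -5.12, and in all 3 of them replicate 3 was the highest of the LPS + LPS libraries. The RNA sensor gene Ifih1 stood at 938, 937 and 961 CPM in LPS and 65.6, 82.7 and 92.0 in LPS + LPS, so that the groups were far apart and each group was tight. Among the GTPases, Gbp9 stood at 554, 550.2 and 572 CPM in LPS and 19.6, 22.4 and 35.9 in LPS + LPS (log2 fold change -4.43, SE 0.30, adjusted p = 1.1e-08), and Iigp1 went from 1829.8 to 56.4 CPM on average. When any 1 of the 6 libraries was left out, 33 genes of the first list and 14 or 15 of the second were still called lower.

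Ifnb1, which encodes interferon beta, had no counts in any of the 6 libraries, which allows up to 3 counts per library. Its transcript was thus not detectable at this depth, and the part of interferon beta in these falls was not tested.

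Promoter sequences are shown for 4 of these genes because the genes fell together and because the letters they share can be read directly. The interferon-stimulated response element was searched as GAAANNGAAA on both strands of the 250 bases before the start of the first listed transcript (RefSeq, GRCm38.p6, 9733 tested genes matched by symbol). It was found in 10 of 10 promoters of the GTPase list and 10 of 23 of the interferon list, against 2.98 percent of tested genes and 3.04 percent of all promoters. Among genes called lower by 2 or more on the log2 scale it was in 14.81 percent, and among those called higher by as much in 1.57 percent. A match is a description of the letters and not of binding. In the 160 bases before each start, written 5′ to 3′ on the strand of the gene, capitals mark each match, read on either strand.
Rsad2 (chr12:26456453-26456612, minus strand): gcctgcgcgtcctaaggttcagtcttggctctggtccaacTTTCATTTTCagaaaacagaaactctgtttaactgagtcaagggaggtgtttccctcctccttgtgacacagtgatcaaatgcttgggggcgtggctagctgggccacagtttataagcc
Ifit1 (chr19:34640729-34640888, plus strand): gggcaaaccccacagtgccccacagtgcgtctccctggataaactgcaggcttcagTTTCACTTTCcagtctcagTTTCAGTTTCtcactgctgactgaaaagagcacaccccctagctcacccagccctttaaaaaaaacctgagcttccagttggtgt
Irgm2 (chr11:58214817-58214976, plus strand): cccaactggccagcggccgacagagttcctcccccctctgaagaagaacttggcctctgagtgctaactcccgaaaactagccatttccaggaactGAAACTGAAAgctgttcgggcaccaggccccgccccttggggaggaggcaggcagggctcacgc
Igtp (chr11:58199396-58199555, plus strand): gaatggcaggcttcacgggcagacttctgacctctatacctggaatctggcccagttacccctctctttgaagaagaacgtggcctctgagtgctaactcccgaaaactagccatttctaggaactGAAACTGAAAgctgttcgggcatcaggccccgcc
The matches begin 120 bases before the start in Rsad2, 104 and 85 in Ifit1, 64 in Irgm2 and 34 in Igtp. The Irgm2 and Igtp stretches are near copies of each other around the match, so they are not separate instances of the shared letters. Irgm2 fell by 2.80 (SE 0.27) and Igtp by 3.05 (SE 0.35), with levels of 436, 582 and 434 CPM in LPS and 76.0, 60.3 and 72.3 in LPS + LPS for the former.

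Cytokines, the products by which tolerance is usually judged, did not move as 1 block. Of the 20 tested, 9 fell, 3 rose and 8 did not pass the test, and the median was -1.15. Il6, the fever and acute-phase cytokine, stood at 37.0, 64.0 and 45.9 CPM in LPS and 6.54, 8.67 and 13.4 in LPS + LPS, without overlap, and fell by 2.37 (SE 0.34, adjusted p = 3.1e-05). Il1a fell by 1.36 (SE 0.35, adjusted p = 0.0054), from 1219.5, 903 and 1063 CPM to 338, 381 and 521. The strongest fall of the list was that of Il15, which sustains natural killer and memory T cells, at 74.0, 70.6 and 84.8 CPM in LPS and 0.705, 0.800 and 0.710 in LPS + LPS (log2 fold change -6.68, SE 0.34, adjusted p = 9.5e-10). Il18 and Il27, a partner of interferon gamma induction and a regulator of T cells, fell by 2.86 and 2.73, and Csf1 by 2.66. The 3 genes of the list that rose, Edn1, Il1f9 and Il12a, were named after their values were seen, and Edn1 is not a classical cytokine gene. Edn1, the vasoconstrictor endothelin 1, rose by 1.23 (SE 0.25), from 20.2, 26.6 and 24.4 CPM to 58.3, 53.1 and 55.5, and Il1f9, which encodes IL-36 gamma, rose by 2.67 (SE 0.54). The call of Il12a was lost without replicate 2 or 3 of LPS or replicate 1 or 3 of LPS + LPS (adjusted p = 0.097 to 0.14).

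Tnf, Il1b, Il12b and Nos2, which are classical LPS targets, did not pass the test. Tnf stood at 56.7, 75.4 and 78.9 CPM in LPS and 63.5, 49.8 and 55.6 in LPS + LPS, with overlapping groups (log2 fold change -0.32, SE 0.19, adjusted p = 0.2). For Il1b the levels were 179, 157 and 264 CPM in LPS and 232, 181 and 225 in LPS + LPS, also overlapping, and the log2 fold change was 0.0848 (SE 0.35, adjusted p = 0.88). Nos2, the inducible nitric oxide synthase, varied widely in LPS, at 241, 923 and 591 CPM, against 594, 919 and 663 in LPS + LPS (log2 fold change 0.31, SE 0.59, adjusted p = 0.73). Il12b lay at 4.98, 4.28 and 5.10 CPM and 5.1999, 5.14 and 5.11 CPM. The label LPS tolerance therefore names the treatment: Il6, Il1a and most chemokines with a call were lower, and these 4 transcripts were not shown to be. The signs of Tnf, Il1b and Nos2 were not stable, since Tnf was at 0.26, adjusted p = 0.35 with total-count scaling, Il1b at -0.0605, adjusted p = 0.93 without replicate 2 of LPS and Nos2 at -0.0597, adjusted p = 0.96 without replicate 1 of LPS.

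**Figure D2:**
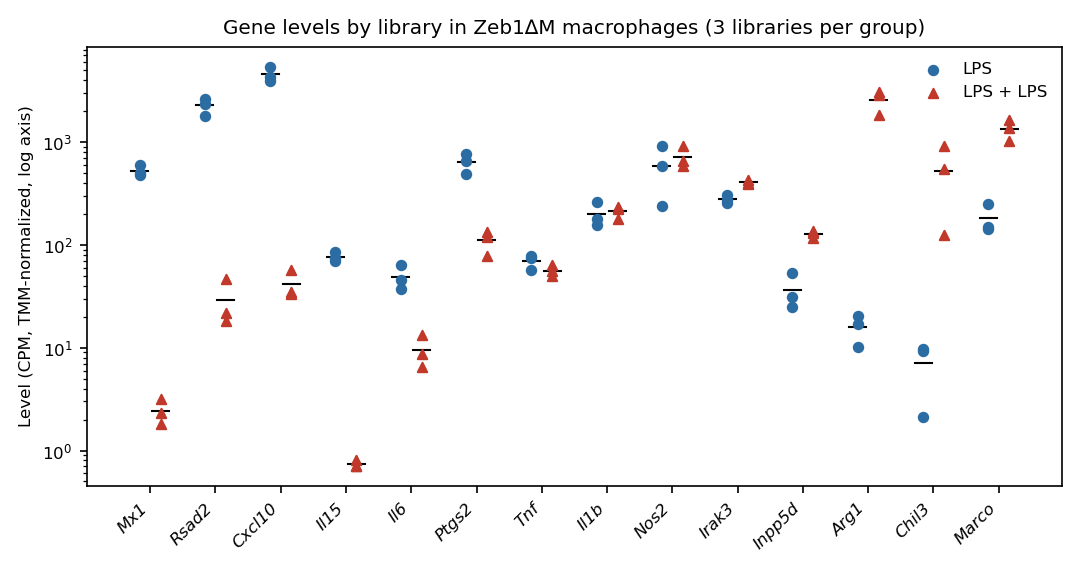
Levels in CPM (TMM-normalized, log axis) of 14 genes in each of the 3 LPS (circles) and 3 LPS + LPS (triangles) libraries of Zeb1∆M macrophages, with bars at the group means. Mx1, Rsad2, Cxcl10, Il15, Il6 and Ptgs2 lie lower after the second dose, Tnf, Il1b and Nos2 overlap, and Arg1, Chil3 and Marco lie higher.

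Chemokines, which call leukocytes into the cavity, fell in 11 of 22 tested cases and rose in 2 (median -1.28). Cxcl10, the interferon-induced attractant of T cells, had the steepest fall, at 4316, 3982 and 5411 CPM in LPS and 57.5, 33.5 and 35.0 in LPS + LPS (109-fold, log2 fold change -6.76, SE 0.78, adjusted p = 3.1e-06), and Cxcl11, whose ligand shares that receptor but which is annotated as a polymorphic pseudogene, fell by 5.49 (SE 0.87). Ccl5 and Ccl7, attractants of T cells and monocytes, fell by 2.74 and 2.76, and the eosinophil attractant Ccl24 by 4.66, from 307, 147 and 213 CPM to 8.15, 9.60 and 8.57. The neighbours Ccl3 and Ccl4 parted: Ccl4 fell by 1.56 (SE 0.35, adjusted p = 0.0025), whereas Ccl3, at 270.3, 338 and 309 CPM in LPS and 224, 205 and 328 in LPS + LPS, overlapped (log2 fold change -0.28, SE 0.34, adjusted p = 0.58), with a value of 0.31, adjusted p = 0.43 under total-count scaling. Whether these 2 changes differ was not tested. Ccl8, a monocyte attractant, moved the other way and rose by 4.52 (SE 0.66, adjusted p = 3.9e-05), at 0.743, 0.255 and 0.255 CPM in LPS and 7.15, 8.92 and 11.6 in LPS + LPS.

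The receptor for LPS and its first adaptors fell in part. Of 23 tested genes, 7 fell and 2 rose (median -0.34, and 0.24 with total-count scaling). Cd14, which hands LPS to the receptor, stood at 15794, 6575 and 11036 CPM in LPS and 2926, 3795 and 3901 in LPS + LPS (log2 fold change -1.65, SE 0.35, adjusted p = 0.0015). Ly96, which encodes the MD-2 subunit, fell by 1.53 (SE 0.24), Lbp by 1.39 (SE 0.23) and Myd88, the adaptor, by 1.78 (SE 0.20), the last from 703, 712 and 752 CPM to 216, 200.5 and 214. Tlr4 itself stood at 49.3, 50.4 and 47.4 CPM in LPS and 35.7, 30.1 and 38.5 in LPS + LPS and did not pass the test (log2 fold change -0.50, SE 0.21, adjusted p = 0.08), although it did with only the 6 libraries in the fit (-0.47, adjusted p = 0.034) and had the other sign with total-count scaling (0.0909, adjusted p = 0.81). Ticam2, the bridging adaptor of the TRIF arm, rose by 2.59 (SE 0.38, adjusted p = 4.8e-05), at 3.64, 4.08 and 4.13 CPM in LPS and 34.2, 22.9 and 14.3 in LPS + LPS, while Tbk1, the kinase of that arm, fell by 1.01 (SE 0.16), a call lost with total-count scaling (-0.42, adjusted p = 0.076).

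All 5 NF-kB subunit genes fell, by 0.89 for Rel to 1.31 for Rela, with Nfkb1 at 93.1, 75.1 and 84.7 CPM in LPS and 32.0, 32.0 and 38.3 in LPS + LPS, and 4 of the 5 did with total-count scaling, the exception being Rel (-0.30, adjusted p = 0.29). No fall in this group was called against a minimum change of 1 on the log2 scale. The brakes on TLR signalling, many of which are NF-kB targets themselves, fell in 17 of 30 cases and rose in 4 (median -1.28). Tnfaip3, which encodes the ubiquitin-editing enzyme A20, stood at 1914, 2158 and 2151 CPM in LPS and 411, 637 and 682 in LPS + LPS and fell by 1.85 (SE 0.25, adjusted p = 2.1e-05). Zfp36, which destabilises cytokine mRNA, fell by 2.26, Socs3 by 1.65 and Nfkbia, the NF-kB inhibitor, by 1.20.

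The 4 brakes that rose were 2 phosphatase genes, an inactive kinase and a decoy receptor. Inpp5d, which encodes the lipid phosphatase SHIP1, rose by 1.82 (SE 0.26, adjusted p = 3.3e-05), at 24.9, 53.6 and 31.2 CPM in LPS and 131, 118 and 138 in LPS + LPS. Ptpn6, which encodes the tyrosine phosphatase SHP-1, rose by 1.62 (SE 0.25), and the groups were apart in both genes. Irak3, the inactive IRAK-M kinase that is used as a mark of tolerance, rose by 0.54 (SE 0.17, adjusted p = 0.02), at 276, 255 and 309 CPM in LPS and 395, 402 and 428 in LPS + LPS. The Irak3 call was lost without replicate 1 or 2 of LPS or replicate 3 of LPS + LPS (adjusted p = 0.058, 0.074 and 0.065). Il1r2, the decoy receptor for IL-1, named after its value was seen and known from neutrophils as well, rose by 3.50 (SE 0.61). Il10 stood at 22.2, 16.7 and 24.4 CPM in LPS and 15.1, 12.3 and 21.5 in LPS + LPS and did not pass the test (log2 fold change -0.37, SE 0.33, adjusted p = 0.43), with the other sign under total-count scaling (0.23, adjusted p = 0.64). Of the immediate early transcription factors, 5 of 20 fell and 3 rose, and the former count was 3 without replicate 3 of LPS. Junb fell by 1.32 (SE 0.29) and Ier3 by 1.62 (SE 0.32).

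Genes of alternative activation split. Of 25 tested, 10 rose and 7 fell, with a median of 0.08. Arg1 (ENSMUSG00000019987.9, chr10:24915221-24927484, minus strand, GRCm38), which encodes arginase, rose 165-fold, at 20.3, 10.2 and 16.968 CPM in LPS and 3062, 2889.5 and 1855 in LPS + LPS (log2 fold change 7.36, SE 0.47, adjusted p = 4.6e-09). All 3 LPS + LPS libraries were far above the LPS libraries. Chil3, which encodes the chitinase-like protein Ym1, rose by 6.23 (SE 0.70, adjusted p = 2.3e-06), at 9.81, 2.14 and 9.27 CPM in LPS and 549, 126 and 913 in LPS + LPS, so that replicate 2 was the lowest in both groups. Retnla, the third gene usually listed with them, moved the other way and fell by 3.68 (SE 0.56, adjusted p = 6.7e-05), at 451, 519.7 and 389 CPM in LPS and 50.9, 22.1 and 33.1 in LPS + LPS.

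Other members of the list rose as well. Mrc1, the mannose receptor, stood at 47.9, 41.6 and 34.6 CPM in LPS and 92.7, 116 and 104 in LPS + LPS (log2 fold change 1.33, SE 0.32, adjusted p = 0.004). Stab1, a scavenger receptor, rose by 3.67 (SE 0.43), Folr2, a folate receptor, by 2.87 (SE 0.43) and F13a1, a coagulation transglutaminase of monocytes and macrophages, by 2.80 (SE 0.47). Il4, at 0.223, 3.67 and 1.73 CPM in LPS and 0.134, 0.126 and 0.0947 in LPS + LPS, fell by 3.92 (SE 1.12, adjusted p = 0.013), a call that was lost without replicate 2 of LPS (-3.01, adjusted p = 0.067), which also had the highest eosinophil markers. The other leading rises were Siglece, an inhibitory sialic acid receptor, at 17.2, 26.6 and 23.1 CPM in LPS and 370.1, 356 and 366 in LPS + LPS (log2 fold change 4.03, SE 0.23, adjusted p = 1.9e-09), Slc13a3, a carrier of dicarboxylates, at 10.5, 10.3 and 13.2 CPM in LPS and 231, 194 and 143 in LPS + LPS, and Sdc1, a heparan sulfate proteoglycan, at 7.65, 4.54 and 5.10 CPM in LPS and 113, 111 and 94.0 in LPS + LPS. Lox, which crosslinks collagen, rose by 6.08, Rab7b, a regulator of TLR traffic, by 5.02, and Ndrg1, a gene induced by hypoxia, by 4.04. Lgals1, which encodes galectin-1, and Anpep, which encodes aminopeptidase N, rose by 4.15 and 4.32.

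Antimicrobial and acute-phase genes rose in 7 and fell in 8 of 20 tested cases. Hp, which encodes the haemoglobin scavenger haptoglobin, stood at 1275, 829 and 1269.6 CPM in LPS and 7084, 5893 and 5153 in LPS + LPS and rose by 2.43 (SE 0.29, adjusted p = 4.9e-06). Lcn2, which withholds iron from bacteria, rose by 2.24 (SE 0.35) and Marco, a receptor for bacteria, by 2.88 (SE 0.29), at 145, 151 and 252 CPM in LPS and 1369, 1643 and 1024 in LPS + LPS. Lyz2, the lysozyme whose promoter drives the Cre of both groups, stood at 38104, 22534 and 30415 CPM in LPS and 9414, 9716 and 6892 in LPS + LPS, and fell by 1.81 (SE 0.36, adjusted p = 0.00079). Slpi, a protease inhibitor, fell by 1.79 (SE 0.38) and Acod1, which makes itaconate, by 1.22 (SE 0.31), the latter not with total-count scaling (-0.63, adjusted p = 0.052), under which 3 genes of the list were called lower.

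Genes of glycolysis, which splits glucose to pyruvate and lactate, mostly rose. Of 26 tested, 16 rose and 7 fell (median 1.07). From glucose phosphate to lactate, Gpi1 stood at 78.9, 90.7 and 98.6 CPM in LPS and 499, 411 and 387 in LPS + LPS (log2 fold change 2.27, SE 0.19, adjusted p = 7.1e-08), without overlap. Aldoa rose by 1.78 (SE 0.20), Tpi1 by 1.72 (SE 0.24), Pgam1 by 1.42 (SE 0.22), Pkm by 1.29 (SE 0.24) and Ldha by 0.97 (SE 0.23). Pkm and Ldha, which make pyruvate and lactate, stood at 1193, 937 and 1303 CPM in LPS and 2921, 2683 and 2811 in LPS + LPS and at 1232, 1461 and 1662 CPM in LPS and 3240.2, 2874 and 2387 in LPS + LPS, without overlap. Slc16a3, the lactate exporter, rose by 2.68 (SE 0.35, adjusted p = 1.1e-05), at 59.8, 117 and 100.1 CPM in LPS and 615, 622 and 542 in LPS + LPS. Pdk1, which keeps pyruvate out of mitochondria, rose by 2.61 (SE 0.34).

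At the start of the pathway the genes differed. Hk2, the inducible hexokinase, stood at 148, 187 and 162 CPM in LPS and 49.3, 70.8 and 57.1 in LPS + LPS and fell by 1.49 (SE 0.21, adjusted p = 2.8e-05), and Slc2a6, a lysosomal hexose transporter, fell by 2.15 (SE 0.24). Slc2a1, the main glucose transporter, at 244, 239 and 300.2 CPM in LPS and 387, 436 and 401 in LPS + LPS, was higher in every LPS + LPS library and lay at the threshold (log2 fold change 0.64, SE 0.24, adjusted p = 0.05). It was called higher under 8 of the alternatives, at adjusted p = 0.001 to 0.046, DESeq2 and total-count scaling included. The rise of Gapdh, 0.76 (SE 0.26, adjusted p = 0.029), was lost without replicate 1 or 2 of either group (adjusted p = 0.061 to 0.13). Without replicate 3 of LPS or replicate 1 of LPS + LPS, the number of genes that fell was 4.

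**Figure D3:**
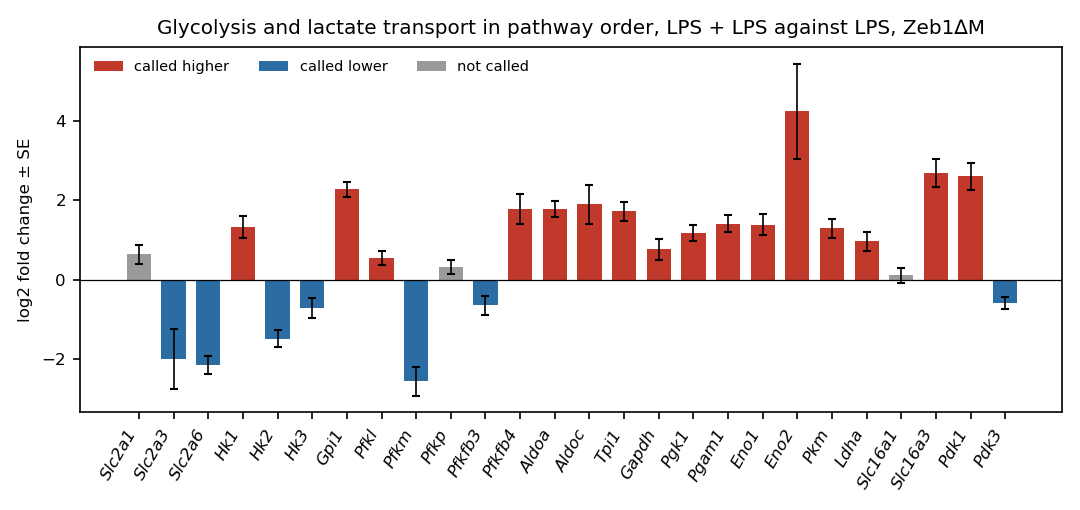
Bars give the log2 fold change (y axis, LPS + LPS against LPS, Zeb1∆M) of each tested gene of glycolysis and lactate transport, with its standard error, in pathway order on the x axis from glucose transporters to lactate export and the pyruvate dehydrogenase kinases. Genes from Gpi1 to Slc16a3 are mostly higher, while Slc2a6, Hk2 and Pfkm are lower.

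The hypoxia response element core, searched as ACGTG on both strands of the same 250 bases, was in 11 of 25 promoters of this list, against 22.09 percent of tested genes, 22.17 percent of genes called higher and 22.85 percent of those called lower. CACGTG, which the search counts on both strands, is also the E-box. The promoter of Ldha is shown as an example from this list. The other promoters shown here were not marked for this motif, so their matches are not compared.
Ldha (chr7:46845644-46845803, plus strand): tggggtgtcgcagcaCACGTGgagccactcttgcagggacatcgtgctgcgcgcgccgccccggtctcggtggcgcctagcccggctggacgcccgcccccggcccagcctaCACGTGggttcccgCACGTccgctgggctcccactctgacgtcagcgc
Its letters ACGTG or CACGT are in capitals, at 145 and 144, 48 and 47, and 34 bases before the start. Positions 145 and 144 are the same CACGTG read on both strands, and so are 48 and 47.

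What the mitochondrial lists show depends on the scaling. Of 22 TCA cycle enzymes, 2 rose and 3 fell, of 37 nuclear complex I genes 3 and 1, and of 40 genes of complexes II to V 0 and 1. Each of these shares was below the background of 15.8 and 16.9 percent. With total-count scaling the same lists had 14, 27 and 26 genes higher and 0 lower, above that scaling's own background of 32.4 percent higher. Relative to the typical gene, the 3 rises of complex I were 1 without replicate 2 of LPS or replicate 1 or 3 of LPS + LPS and 5 without replicate 1 of LPS. All 12 tested transcripts of the mitochondrial genome had negative values (median -0.76), and 5 of them fell, a number that was 3 without any 1 of the 3 LPS libraries or without replicate 3 of LPS + LPS, and 0 with total-count scaling. mt-Nd4, a complex I subunit, stood at 369.7, 569.5 and 398 CPM in LPS and 220.2, 198 and 129 in LPS + LPS (log2 fold change -1.29, SE 0.31, adjusted p = 0.0034). Mitochondrial ribosomal protein genes rose in 10 and fell in 10 of 78 cases, both shares below the background. There were 6 rises without replicate 2 of LPS, and 35 rises and 2 falls with total-count scaling.

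Sterol synthesis genes rose in 12 of 21 cases and fell in 1 (median 0.99). Mvd and Fdps, both of the mevalonate pathway, rose by 2.16 (SE 0.22) and 1.72 (SE 0.24), the former at 8.17, 9.99 and 9.99 CPM in LPS and 47.6, 39.3 and 39.0 in LPS + LPS. The fall was that of Insig1, which holds the sterol sensor back, by 1.26 (SE 0.24).

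Cell cycle genes rose as a group, from a low base. Of 37 tested, 31 rose and none fell, with a median of 2.63. Cdc20, an activator of the anaphase-promoting complex, stood at 0.446, 0.306 and 0.866 CPM in LPS and 10.7, 10.3 and 10.7 in LPS + LPS (log2 fold change 4.26, SE 0.73, adjusted p = 0.00019). Ccnb1, the mitotic cyclin B1, stood at 1.34, 1.58 and 0.611 CPM in LPS and 15.2, 16.4 and 16.6 in LPS + LPS and rose by 3.77 (SE 0.64), and its kinase Cdk1 by 2.69 (SE 0.47). Cdca8, of the chromosomal passenger complex, and Ccna2, cyclin A2, rose by 3.76 and 2.90. Every LPS + LPS library lay above every LPS library in these 5 genes, at levels that stayed low in CPM. Groups were likewise apart in 97.86 percent of all called genes. The genes that did not pass the test, named after their values were seen, included Mki67 (log2 fold change 0.18, adjusted p = 0.74) and Pcna (-0.21, adjusted p = 0.39).

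A CCAAT box, searched as CCAAT on both strands, was in 25 of 30 promoters of the cell cycle list and 13 of 14 of the sterol list, against 37.12 percent of tested genes, 37.55 percent of those called higher and 37.02 percent of those called lower. The 120 bases before the start of 3 mitotic genes are shown, with CCAAT or its complement ATTGG in capitals, because each holds more than 1.
Cdc20 (chr4:118437344-118437463, minus strand): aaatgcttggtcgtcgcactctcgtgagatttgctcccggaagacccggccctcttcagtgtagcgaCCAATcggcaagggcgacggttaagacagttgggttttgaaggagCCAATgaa
Ccnb1 (chr13:100786487-100786606, minus strand): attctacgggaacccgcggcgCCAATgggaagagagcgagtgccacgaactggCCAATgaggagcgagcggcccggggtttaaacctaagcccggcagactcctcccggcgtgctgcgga
Cdca8 (chr4:124936918-124937037, minus strand): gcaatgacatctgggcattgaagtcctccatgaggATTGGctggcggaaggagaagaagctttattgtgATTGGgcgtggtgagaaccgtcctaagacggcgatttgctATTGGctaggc

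The lists of stress, ribosome biogenesis and cytosolic aminoacyl-tRNA synthetase genes had medians below the typical gene. Of 16 tested genes of the integrated stress response 9 fell and 2 rose (median -1.14), and the number that fell was 5 without replicate 1 or 3 of LPS or replicate 1 or 2 of LPS + LPS. Atf4, the transcription factor itself, stood at 147, 153 and 188 CPM in LPS and 53.5, 52.4 and 37.9 in LPS + LPS (log2 fold change -1.76, SE 0.24, adjusted p = 1.8e-05). Chac1, its target that degrades glutathione, fell by 5.36 (SE 0.99). Heat shock proteins and chaperones fell in 13 of 20 cases (median -0.73). Hspa5, the chaperone of the endoplasmic reticulum, went from 5338, 3417 and 4374 CPM to 1252, 1323 and 1595, and Hspa8, of the cytosol, fell by 1.86 (SE 0.25).

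Ribosome biogenesis genes fell in 17 of 40 cases and cytosolic aminoacyl-tRNA synthetases in 8 of 20. Both directions depend on the scaling: with total counts alone the medians were 0.05 and 0.21 in place of -0.54 and -0.38, with 1 and 0 genes called lower, and for the lists of heat shock and of integrated stress genes 3 each. Mitochondrial aminoacyl-tRNA synthetases rose in 4 and fell in 1 of 17 cases, with 2 rises without replicate 3 of LPS + LPS and 9 with total-count scaling. Wdr43 and Ncl, which act in the nucleolus, fell by 1.44 (SE 0.19) and 1.04 (SE 0.19), Ncl not with total-count scaling (-0.45, adjusted p = 0.16).

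The lists for nutrient sensing and degradation were mixed and depended on the scaling. Amino acid transporters rose in 5 and fell in 2 of 24 cases and mTORC1 pathway genes in 5 and 1 of 21. Autophagy genes rose in 7 and fell in 5 of 37 and lysosomal genes in 8 and 5 of 32. The background was 15.8 percent higher and 16.9 percent lower, and the autophagy shares were near it. With total-count scaling the transporters had 10 rises and 0 falls, the mTORC1 genes 8 and 0, the autophagy genes 18 and 2, and the lysosomal genes 23 and 2. Over all tested genes that scaling called 32.4 percent higher and 7.02 percent lower. The shares of rising transporters and mTORC1 genes were not far above that background. Without 1 library the counts of the main fit ranged from 3 to 5 for rising transporters. The lowest came without replicate 2 of LPS or replicate 2 or 3 of LPS + LPS. For rising lysosomal genes they ranged from 4 to 7, the lowest without replicate 2 of LPS or replicate 1 of LPS + LPS. Falls were called in 3 autophagy genes without replicate 3 of LPS or replicate 2 of LPS + LPS, in 3 lysosomal genes without replicate 3 of LPS or replicate 1 of LPS + LPS, and rises in 3 mTORC1 genes without replicate 1 of LPS. Eif4ebp1, which holds back cap-dependent translation, rose by 1.98 (SE 0.30), at 32.7, 27.9 and 27.7 CPM in LPS and 130.1, 112 and 106 in LPS + LPS. The mitophagy receptors Bnip3l and Bnip3 rose by 2.00 (SE 0.18) and 2.09 (SE 0.44), the latter from 64.8, 62.0 and 68.6 CPM to 288, 283 and 260.3. Optn, another autophagy receptor, fell by 2.23 (SE 0.17). Antioxidant and glutathione genes rose in 5 and fell in 6 of 27 cases, shares not far above the background, and in 13 and 1 with total-count scaling. Glrx, which encodes glutaredoxin, rose by 2.38 (SE 0.21) and Gpx1, a glutathione peroxidase, by 1.43 (SE 0.30), while Txnrd1, a thioredoxin reductase, fell by 1.98 (SE 0.28).

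At the cell surface, costimulatory and checkpoint genes fell in 8 of 14 cases and rose in 2. Cd40 stood at 338, 331 and 422 CPM in LPS and 44.1, 43.0 and 47.2 in LPS + LPS (log2 fold change -3.02, SE 0.29, adjusted p = 4.6e-07), Cd86 fell by 2.70 (SE 0.37), Cd83 by 3.46 (SE 0.31) and Cd274, which encodes PD-L1, by 1.93 (SE 0.25). Sirpa, which receives the signal not to engulf, rose by 1.81 (SE 0.18). No gene of MHC class II presentation passed edgeR's test out of 10, and Cd74, the invariant chain, stood at 2359.8, 1132 and 1835 CPM in LPS and 2366, 2126 and 3332 in LPS + LPS, with overlap (log2 fold change 0.55, SE 0.46, adjusted p = 0.39). DESeq2 called 0 of these 10, and 0 had an unadjusted p under 0.05 in edgeR, while 5 of the 10 were called higher with total-count scaling, among them Cd74 (1.16, adjusted p = 0.019).

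Lipid mediator and complement genes moved in both directions. Ptgs2, the inducible cyclooxygenase, stood at 496, 652 and 763 CPM in LPS and 79.0, 135 and 121 in LPS + LPS (log2 fold change -2.51, SE 0.31, adjusted p = 6.9e-06), Ptgis, the prostacyclin synthase, fell by 2.58 (SE 0.26), and Alox15, a lipoxygenase of resident macrophages, fell by 2.96 (SE 0.38), whereas Alox5ap, the helper of leukotriene synthesis, rose by 0.81 (SE 0.17). C4b, of the classical complement pathway, fell by 2.74 (SE 0.32), from 5077, 9418 and 7787 CPM to 926, 1542 and 873, and C3ar1, the receptor for C3a, rose by 1.19 (SE 0.18). Of 15 complement genes 8 fell and 3 rose (median -0.63), but 3 fell and 3 rose with total-count scaling (median -0.0503). The count varied also with the libraries, with 5 falls without replicate 1 of LPS or replicate 3 of LPS + LPS, and 1 rise without replicate 2 of LPS or replicate 1 or 3 of LPS + LPS. Of 17 prostaglandin and leukotriene genes 7 fell and 4 rose, and 4 fell and 6 rose with total-count scaling. Of the coagulation genes, 6 of 13 fell and 2 rose, but the median was 0.03 with total-count scaling against -0.54. Thbs1, which encodes thrombospondin 1, fell by 2.72 (SE 0.32), from 15085, 20621 and 19518 CPM to 1912, 3387 and 3056. Efferocytosis and scavenger receptor genes rose in 8 and fell in 9 of 22 cases, and in 10 and 4 with total-count scaling. The receptor Axl fell by 2.72 (SE 0.30) and the bridging protein Mfge8 by 2.57 (SE 0.19), while Gas6, the ligand of Axl, rose by 4.48 (SE 0.62), at 0.446, 0.510 and 0.357 CPM in LPS and 9.39, 10.7 and 9.56 in LPS + LPS.

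Cell type markers moved along with these genes, those of large peritoneal macrophages included. Of the 15 large peritoneal macrophage markers, 11 fell and 2 rose (median -1.27), and their sum was 21682 to 31366 CPM in LPS and 5661 to 8633 in LPS + LPS. Selp stood at 5093, 5382 and 5595 CPM in LPS and 444, 609 and 671 in LPS + LPS (log2 fold change -3.22, SE 0.23, adjusted p = 1.4e-08), Prg4 fell by 2.27 (SE 0.25) and Timd4, a receptor for dying cells, by 2.30 (SE 0.25), at 355, 442 and 389 CPM in LPS and 83.2, 111 and 47.0 in LPS + LPS. Gata6, the transcription factor that defines these cells, stood at 29.0, 25.1 and 30.3 CPM in LPS and 27.1, 11.7 and 10.4 in LPS + LPS, with overlap (log2 fold change -0.78, SE 0.60, adjusted p = 0.35). The list holds Alox15 and Timd4, and the part of the mix of cells in these falls was not tested.

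Among monocyte and neutrophil markers, several rose from low levels. Ccr2, the receptor by which monocytes enter tissue, stood at 1.63, 1.12 and 0.764 CPM in LPS and 16.1, 10.9 and 23.2 in LPS + LPS (log2 fold change 3.86, SE 0.42, adjusted p = 1.4e-06), and Ly6c2 rose by 3.35 (SE 0.56), yet of the 10 monocyte markers 4 rose and 4 fell (2 without replicate 3 of LPS or replicate 1 or 3 of LPS + LPS), and their sum was 608 to 939 CPM in LPS and 389.5 to 549 in LPS + LPS. Of 19 neutrophil markers tested, 11 rose and 2 fell (median 2.67). S100a8, a subunit of calprotectin, stood at 29.2, 10.1 and 26.4 CPM in LPS and 359, 224 and 562 in LPS + LPS (log2 fold change 4.13, SE 0.60, adjusted p = 3.6e-05), and Mmp8, a neutrophil collagenase, at 3.20, 1.99 and 8.15 CPM in LPS and 165, 53.4 and 154 in LPS + LPS, and in both genes replicate 2 was the lowest of either group. Chil3 ordered the libraries as S100a8 did. The summed level of the 21 neutrophil markers was 1109 to 1240.1 CPM in LPS and 1190.2 to 1912 in LPS + LPS, in LPS mostly counts of Csf3r and Padi4, the 2 that fell (Csf3r not without any 1 of the 6 libraries, adjusted p = 0.052 to 0.15), and the granule genes Elane and Mpo did not pass the filter on counts. The part of neutrophils in the rise of Chil3, Lcn2, Hp and Il1r2 was not tested.

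Dendritic cell, eosinophil and other markers were low or uneven. Cd209a (ENSMUSG00000031494.7, chr8:3743397-3748984, minus strand, GRCm38), a lectin of dendritic cells and some macrophages, stood at 1014, 264 and 473 CPM in LPS and 0.772, 1.09 and 0.758 in LPS + LPS (log2 fold change -9.38, SE 0.82, adjusted p = 1.4e-07). The eosinophil receptor genes Ccr3 and Siglecf were high in replicate 2 of LPS, at 6.54, 107 and 36.7 and 8.25, 115 and 51.0 CPM by replicate, and their falls of 2.67 and 2.62 (adjusted p = 0.0098 and 0.0089) were lost without that library (-1.47, adjusted p = 0.12 and -1.66, adjusted p = 0.081). Summed B cell markers were 161 to 217 CPM in LPS and 152 to 306 in LPS + LPS, and T and NK cell markers 12.8 to 27.7 CPM in LPS and 11.5 to 17.7 in LPS + LPS, so that both ranges overlapped between the groups. Dendritic cell markers summed to 364 to 1121 CPM in LPS and 45.6 to 89.1 in LPS + LPS, in LPS mostly Cd209a, mast cell and basophil markers to 1180.2 to 2435 CPM in LPS and 197 to 383 in LPS + LPS, nearly all of it Hdc, and eosinophil markers to 16.7 to 249 CPM in LPS and 12.8 to 26.6 in LPS + LPS. Erythroid markers summed to 11.1 to 489 CPM in LPS and 68.3 to 80.1 in LPS + LPS and mesothelial and stromal markers to 0.815 to 2.16 CPM in LPS and 3.22 to 6.82 in LPS + LPS. Epx and Ear1 of the eosinophil list had no counts in any of the 6 libraries, and 1 of 4 tested markers of that list fell without replicate 2 of LPS in place of 3.

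**Figure D4:**
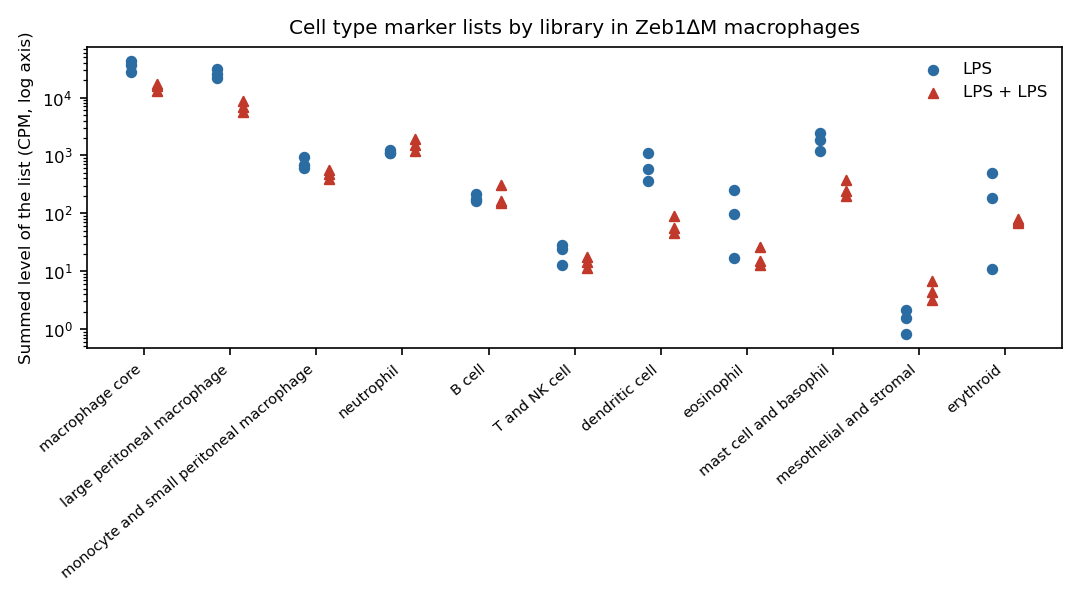
Summed CPM (y axis, log scale) of each cell type's marker list (x axis) in the 3 LPS (circles) and 3 LPS + LPS (triangles) libraries of Zeb1∆M macrophages. Large peritoneal macrophage, dendritic cell and mast cell sums (the last nearly all Hdc) are lower in every LPS + LPS library, and neutrophil and B cell sums overlap between the groups.

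The comparison with Zeb1WT asks whether the change between LPS and LPS + LPS differs between the genotypes. From LPS to LPS + LPS, 2504 genes were higher and 2421 lower in Zeb1WT. Of the 4397 genes called in Zeb1∆M, 3338 (75.9%) were called in the same direction in Zeb1WT, which is 67.8% of the Zeb1WT calls. Another 3 were called in the opposite direction, and across all 13443 genes the log2 fold changes of the genotypes, which share no library, correlated with r = 0.773. A call in 1 genotype alone does not show a difference. The test of the difference, an interaction term in edgeR, called 0 genes at an adjusted p under 0.05 (0 percent of 13443), with 939 at an unadjusted p under 0.05, and DESeq2 called 74. Without a filter on counts edgeR called 236, and leaving out 1 library gave 0 to 11, with 11 without replicate 3 of Zeb1WT LPS + LPS and 9 without its replicate 1 or without replicate 1 of Zeb1∆M LPS + LPS.

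**Figure D5:**
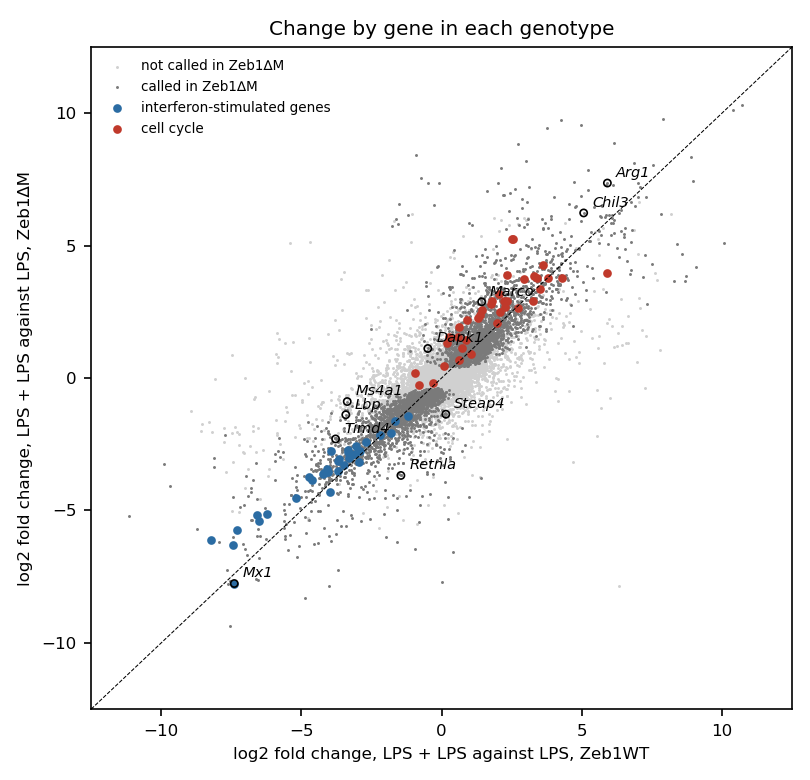
Each point is a gene, with its log2 fold change from LPS to LPS + LPS in Zeb1WT on the x axis and in Zeb1∆M on the y axis, and the dashed line marks equal change. Interferon-stimulated genes lie low and cell cycle genes mostly high in both genotypes. The circled genes are a chosen few of those named in the text, such as Lbp (-3.42 in Zeb1WT, -1.39 in Zeb1∆M).

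The smallest p-values of the interaction belonged to Pou2af1, a B cell coactivator named after its value was seen, and to Lbp, both with an adjusted p of 0.051. Lbp (ENSMUSG00000016024.9, chr2:158306493-158332852, plus strand, GRCm38) went from 91.9 ± 17.4 to 35.2 ± 4.30 CPM in Zeb1∆M and from 96.9 ± 15.1 to 9.08 ± 2.72 CPM in Zeb1WT (mean ± SD, n = 3 each), an interaction of 2.03 (SE 0.33, unadjusted p = 7.5e-06, adjusted p = 0.051). Timd4 went from 395 ± 44.0 to 80.3 ± 32.0 CPM and from 469.8 ± 85.3 to 34.2 ± 3.94 CPM, with an interaction of 1.48 (SE 0.34, unadjusted p = 0.00034, adjusted p = 0.12). Dapk1, a death-associated kinase, changed by 1.12 in Zeb1∆M and -0.49 in Zeb1WT, an interaction of 1.61 (SE 0.32, unadjusted p = 9.8e-05, adjusted p = 0.08). Steap4, a metalloreductase, changed by -1.36 and 0.15, an interaction of -1.52 (SE 0.37, unadjusted p = 0.00071, adjusted p = 0.17). The interaction of Arg1 was 1.45 (SE 0.51, unadjusted p = 0.01, adjusted p = 0.49) and that of Retnla -2.23 (SE 0.73, unadjusted p = 0.0066, adjusted p = 0.43). Apart from Pou2af1, these genes were anchors, chosen with earlier results of these data known. None of them or Pou2af1 passed the threshold after adjustment, which does not show that the genotypes changed alike.

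B cell genes, named after their values were seen, were among those with the smallest interaction p-values. Ms4a1, which encodes CD20, had a log2 fold change of -0.89 in Zeb1∆M and -3.37 in Zeb1WT (interaction adjusted p = 0.069). The call in Zeb1∆M was lost without replicate 1 or 3 of either group (edgeR adjusted p = 0.099 to 0.19). The summed B cell markers stood at 161 to 217 CPM in Zeb1∆M LPS and 585 to 888 in Zeb1WT LPS, and at 152 to 306 and 160.2 to 246 in LPS + LPS. The large peritoneal macrophage sum stood at 5661 to 8633 CPM in Zeb1∆M LPS + LPS and at 1468 to 2579.9 in Zeb1WT LPS + LPS, from 21682 to 31366 and 15369.5 to 20398 in LPS. The list's medians were -1.27 and -2.84, and their difference was not tested. Inflammatory cytokines had medians of -1.15 and -1.86, interferon-stimulated genes -3.30 and -3.71, glycolysis 1.07 and 0.57, and the cell cycle 2.63 and 1.98. No member of any of these lists passed the interaction test. The part of B cells and of the mix of macrophages in the interaction values was not tested.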

How the data were processed

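RNA-seq gene counts of 18 libraries were used as deposited: the authors' table holds whole-number counts per gene for GENCODE-style identifiers, and their processing notes name STAR, RSEM, DESeq2 and GRCm38, without versions. The RNA was poly(A)-selected with a stranded kit. How multi-mapped reads and strand were handled is not given in the sources used here, so near-identical genes (the Ifi200, Trim30, Gbp and immunity-related GTPase families, Stfa genes, haemoglobins) are uncertain. Gene positions came from GENCODE vM21, which held 55094 of the 55573 identifiers with the same version.

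Libraries were grouped by their labels, and each is a pool of mice, so p-values measure the spread between pools. Counts of 14053706 to 20060026 per library limit precision for genes with few counts. Genes were filtered with filterByExpr (13443 of 55573 kept) and fitted with edgeR 4.0.16 in R 4.3.3 (TMM, glmQLFit, glmQLFTest, 1 model of 6 groups over all 18 libraries), with Benjamini-Hochberg adjustment and a threshold of 0.05. The contrasts were LPS + LPS against LPS in Zeb1∆M, the same in Zeb1WT, and their difference. Alternatives were RLE factors, DESeq2 1.42.0, no filter, a replicate block, other sets of libraries, a minimum change (glmTreat), each library left out and, chosen after seeing the data, total-count scaling and removal of length and GC trends. The source names number sets of libraries but do not say that a set was a shared batch. Deviations of same-numbered libraries correlated at -0.025, 0.061 and -0.029, so the numbers were not used as pairs.

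The named genes were taken from 3 sets. These were the 15 largest called rises and falls with a mean log2 CPM of at least 3 and no overlap between groups, up to 6 members of each list by smallest adjusted p, and fixed anchor genes. Not every gene of these sets is described. Among those left out are the anchors Zeb2, Sqstm1, Slc7a8, Cdk5rap1 and Usp30 and the large rises Radx, Plp2 and Clec4a2. Genes from outside these sets are said to be named after their values were seen. The comparison, lists and anchors were chosen with earlier results of these data known. Promoters are 250 bases before the RefSeq start (GRCm38.p6, 27025 entries). Genes without an entry, such as Mx1 and Arg1, are named only. The 6 libraries labelled MET served the shared estimate of spread and are not described here.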

Additional observations from a re-analysis of the deposited data

How the results depend on the processing

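Main counts were 2125 genes higher and 2272 lower. Under RLE factors, DESeq2, no filter, the 6, 12 or 17 libraries and removal of length and GC trends they stayed within 1.5 times, at 2136 to 2669 higher and 1956 to 2440 lower. With a replicate block they were 2101 and 2243, and same-numbered libraries did not deviate together. Leaving out 1 library of the comparison gave 1607 to 1820 higher and 1713 to 1990 lower. A minimum change of 1 on the log2 scale (glmTreat) kept 647 and 696, as fewer genes pass by construction. Total-count scaling, chosen after seeing the data, gave 4353 and 944, so that 82.18 percent of calls were higher against 48.33 percent. The interaction called 0 genes, 2 with RLE factors, 74 with DESeq2, 236 without a filter, 9 with 17 libraries (without replicate 1 of Zeb1WT LPS + LPS, a library whose use in the study is in doubt) and 0 to 11 when 1 library was left out, and the cause was not tested. Under glmTreat the counts called lower were 0 for NF-kB subunits and 6 for brakes, and those called higher 6 for glycolysis, 3 for sterol synthesis and 20 for the cell cycle. Zeb1 was at -1.46 under glmTreat (edgeR adjusted p = 0.22) and -0.89 with total-count scaling (0.12). Of 150 called genes named, 149 kept their sign under every alternative run and 108 also their call. Signs that turned in genes not called were, with total-count scaling, those of Tnf (0.26), Il10 (0.23), Ccl3 (0.31), Tlr4 (0.0909) and Pcna (0.39). With 1 library left out they were those of Il1b (-0.0605 to 0.39), Nos2 (-0.0597 to 0.80) and Mki67 (-0.0207 to 0.43). The fall of Csf3r became 0.0941 with total-count scaling. Depth limits genes such as Zeb1 (16 to 59 counts per library), Il4, Ccl8 and Ifnb1 (0 counts).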

Other observations

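Genes of lipid storage, which no list above is about and which were chosen after their values were seen, included several that rose. Dgat2, which makes triglyceride, stood at 4.98, 6.52 and 7.13 CPM in LPS and 95.0, 69.5 and 95.9 in LPS + LPS (log2 fold change 3.798, SE 0.41, adjusted p = 1.3e-06), and Gpat3, of an earlier step, rose by 3.72 (SE 0.44). Acsl1, which activates fatty acids, stood at 20.5, 25.8 and 25.4 CPM in LPS and 119.8, 117 and 123 in LPS + LPS and rose by 2.32 (SE 0.16), and the droplet coat genes Plin3 and Plin2 rose by 3.02 (SE 0.27) and 1.23 (SE 0.31). Nr1h3, which encodes the oxysterol receptor LXR alpha, rose by 3.02 (SE 0.32), at 5.65, 9.48 and 7.75 CPM in LPS and 70.2, 50.3 and 65.5 in LPS + LPS. Not all lipid genes did: the fatty acid receptor gene Cd36 had a log2 fold change of -0.66 (SE 0.22, adjusted p = 0.031). The call of Cd36 was lost without replicate 1 or 3 of LPS or replicate 2 or 3 of LPS + LPS (adjusted p = 0.093 to 0.13). It was also lost with total-count scaling (-0.0577, edgeR adjusted p = 0.86) and with length and GC trends removed (-0.29, adjusted p = 0.37). The same held without a filter (adjusted p = 0.071) and with 12 libraries (adjusted p = 0.07). The change of Lpl, the lipoprotein lipase, was 0.38 (SE 0.23, adjusted p = 0.22), though Lpl was called higher with total-count scaling (0.96, edgeR adjusted p = 0.0071). That of Abca1, the cholesterol exporter, was -0.88 (SE 0.19, adjusted p = 0.0015), a call lost with total-count scaling (-0.30, adjusted p = 0.26). In Zeb1WT the values were 3.51 for Dgat2, 2.33 for Acsl1 and 3.95 for Nr1h3, and the interaction adjusted p was 0.97, 1 and 0.69.

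Nuclear interferon-induced genes outside the lists, also chosen after their values were seen, were lower. Sp100 and Sp110, of nuclear bodies, fell by 2.93 (SE 0.22) and 3.405 (SE 0.26). Ifi203, of the DNA-binding Ifi200 family, stood at 792, 748 and 751 CPM in LPS and 54.9, 69.2 and 61.3 in LPS + LPS (log2 fold change -3.63, SE 0.30, adjusted p = 7.2e-08). Counts of the Ifi200 family are uncertain, since its members are close copies of each other. Ankrd37, known as a hypoxia-induced gene, rose by 3.88 (SE 0.43), from 0.892, 1.99 and 1.48 CPM to 27.6, 21.2 and 16.5.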
